A study of Mus musculus with 23 samples.

Results

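Nnat and Blcap are a pair of genes on mouse chromosome 2 in which the shorter gene lies inside an intron of the longer one. They were followed here by their rows in the count tables of whole mouse embryos, so the members are 2 of the 26183 genes in the tables, chosen by name. RNA was sequenced from 23 embryos at E13.5 (mid-gestation), 1 library per embryo, and the question was how loss of Zfp57 in the mother, or in both mother and embryo, changed imprinted expression in each sex. All were 129/DBA hybrids from 129S6/SvEvTac mothers and fathers backcrossed to DBA/2J, so a read that covers a sequence difference between the strains shows which parent its allele came from. M+Z+ embryos had a mother with functional Zfp57 and kept a functional zygotic copy. The labels give them as Zfp57-/+, the study's text also as +/+, and they may therefore include wild-type and heterozygous embryos. M-Z+ embryos were heterozygous offspring of Zfp57-/- mothers, and M-Z- embryos were Zfp57-/- offspring of Zfp57-/- mothers. There were 6 M+Z+, 3 M-Z+ and 4 M-Z- females, and 4 M+Z+, 3 M-Z+ and 3 M-Z- males. Zfp57 is deleted in all cells of the M-Z- embryos, not in a chosen tissue, and whole embryos mix all tissues, so a change in a tissue's share of the RNA and a change per cell cannot be told apart.

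Nnat encodes neuronatin, a small membrane protein of the endoplasmic reticulum that resembles the regulators of the SERCA calcium pumps and is abundant in the developing nervous system. It is an imprinted gene expressed from the paternal allele, because the maternal promoter region carries DNA methylation that was set in the egg. Blcap encodes a short protein associated with control of cell growth, and in mouse brain its transcripts are known to come preferentially from the maternal allele. ZFP57 is a zinc finger protein that binds methylated copies of a 6-base motif in imprinting control regions and keeps their methylation through early development.

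In the mm9 annotation used for the deposited counts, Nnat occupies chr2:157385814-157388261 on the plus strand, with 1336 bases of exon. Blcap spans chr2:157382098-157392097 on the minus strand, with 2108 bases of exon. Nnat lies wholly within the Blcap intron at chr2:157384064-157391955, which is 7892 bases long. The last Blcap exon ends 1750 bases before the Nnat start, and the first Blcap exon begins 3694 bases beyond the Nnat end. Neither gene has an exon that overlaps an exon of any other gene in the table, so a read from a spliced transcript of one gene cannot be counted for the other. The last exon of Blcap, which holds 1966 bases, makes up 93.3% of its exon length.

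The windows from 250 bases before to 50 bases after each start are shown because the genotypes differ in the protein that reads this motif. They were read from the mm9 genome by the deposited coordinates and are written 5′ to 3′ on the strand of each gene. Capitals mark TGCCGC on either strand (GCGGCA when it lies on the opposite strand).
Nnat, chr2:157385564-157385863, plus strand: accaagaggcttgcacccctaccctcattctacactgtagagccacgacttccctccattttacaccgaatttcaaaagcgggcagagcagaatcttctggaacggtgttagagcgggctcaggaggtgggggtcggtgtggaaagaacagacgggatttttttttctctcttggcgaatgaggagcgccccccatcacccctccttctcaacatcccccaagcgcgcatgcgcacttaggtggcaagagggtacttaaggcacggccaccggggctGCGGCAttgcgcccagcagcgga
Blcap, chr2:157392048-157392347, minus strand: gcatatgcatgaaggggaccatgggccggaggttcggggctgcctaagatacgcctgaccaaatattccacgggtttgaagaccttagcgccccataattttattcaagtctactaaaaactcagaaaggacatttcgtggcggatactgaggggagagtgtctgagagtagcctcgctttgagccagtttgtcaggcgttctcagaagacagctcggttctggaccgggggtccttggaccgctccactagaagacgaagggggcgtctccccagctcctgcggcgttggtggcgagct
The Nnat window holds 1 match, 27 bases after the start, and the Blcap window holds none. Of 25895 windows of the same size in the annotation, 3505 (13.54%) hold at least 1 match. Both windows hold 17 CpG dinucleotides, where the median window holds 11.

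Over the whole span of Blcap the motif occurs 9 times, and 6 of these lie close to the Nnat start: 1 is the match in the Nnat window above, and 5 fall in 2 stretches on either side of it, which are shown because they are the places in the span where matches lie closest together. Both are from the plus strand of mm9.
Upstream stretch, chr2:157385504-157385543: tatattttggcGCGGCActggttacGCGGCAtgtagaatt
First intron stretch, chr2:157386064-157386143: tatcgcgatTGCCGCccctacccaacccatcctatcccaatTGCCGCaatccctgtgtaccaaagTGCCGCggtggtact
The second stretch lies in the first intron of Nnat, between exon 1 and exon 2. CpG dinucleotides occur at 4.21 per 100 bases within Nnat and at 2.21 per 100 bases in the rest of the Blcap span. A match of letters is a description of the sequence and was not tested as a binding site. The motif itself holds a CpG, and the grouping of its matches was not compared with other regions.

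**Figure D1:**
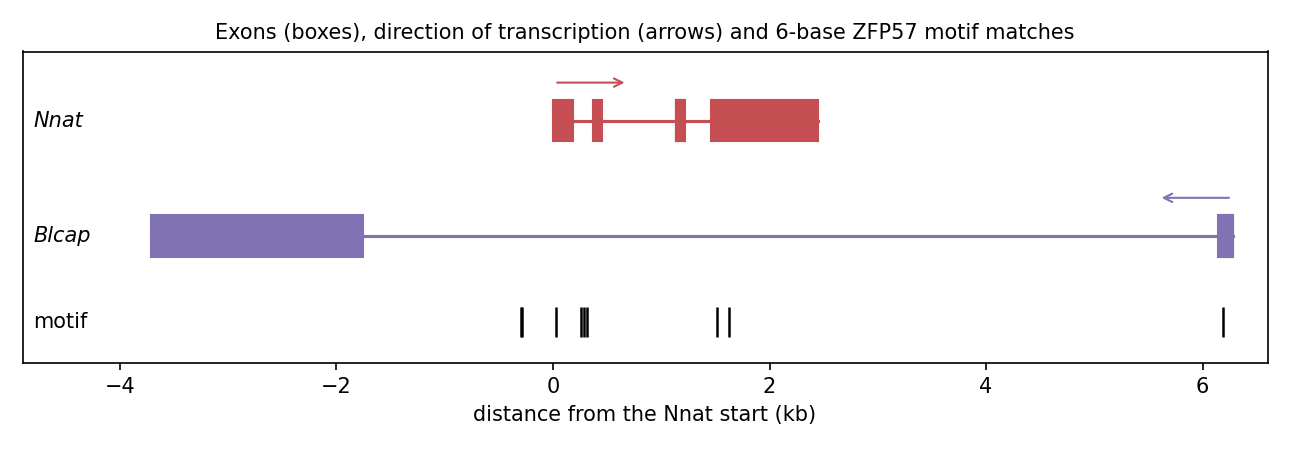
Map of the 2 genes by distance in kb from the Nnat start, with exons as boxes, introns as lines, arrows in the direction of transcription, and a tick for each of the 9 matches to TGCCGC in the Blcap span. Nnat lies inside the Blcap intron on the opposite strand, and 6 of the 9 ticks stand near its start.

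Counts over genes numbered 15155251 to 24078410 per library, and 15.7% of them in females and 16.1% in males had an allele assigned. Zfp57, counted over the whole gene, lay between 52.7 and 99.1 counts per 1000000 counts of the library (CPM) in M+Z+ females and between 31.9 and 34.0 in M-Z- females. In males it lay between 68.0 and 88.8 CPM in M+Z+ embryos and between 25.5 and 35.3 CPM in M-Z- embryos, so the groups did not overlap in either sex. The deleted allele still yielded reads over this gene, and the deleted part cannot be separated in a count per gene. No pair of libraries held identical values.

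In M+Z+ embryos Nnat was among the most abundant transcripts. Its mean level per length was 1468 ± 118 transcripts per 1000000 (TPM, CPM corrected for exon length; SD, n = 6) in females, the rank of 79 among 21679 genes with any read, and 1430 ± 124 TPM (n = 4) in males, the rank of 78 among 21325. Blcap stood at 76.7 ± 5.3 TPM in females and 69.7 ± 5.5 TPM in males, ranks of 2106 and 2304. The TPM of Nnat was therefore 18.19 to 21.23 times that of its host gene in M+Z+ females and 18.75 to 22.05 times in M+Z+ males.

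Without maternal and zygotic Zfp57 the 2 genes moved in opposite directions in both sexes: Nnat rose and Blcap fell. In females Nnat was 1.78-fold higher and Blcap was at 0.530 times the M+Z+ level. In males Nnat was 2.16-fold higher and Blcap was at 0.614 times the M+Z+ level. Calls of change were made with edgeR's quasi-likelihood test and Benjamini-Hochberg adjustment, at an adjusted p under 0.05 and a log2 difference of 0.5 or more in size. In females 0.563% of all 16871 genes tested were called between M-Z- and M+Z+, 0.285% higher and 0.279% lower. In males 0.39% of 16664 were called, 0.264% higher and 0.126% lower. Both members were called in each sex.

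Nnat had 821 CPM at the lowest, 887 at the median and 963 at the highest in the 6 M+Z+ females. The 4 M-Z- females had 1567, 1689, 1603 and 1488 CPM. Every M-Z- female lay above every M+Z+ female, with a wide gap between the groups. The log2 fold change was 0.83 ± 0.06 (SE; 95% interval 0.72 to 0.95; edgeR adjusted p = 6.58e-08).

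The 4 M+Z+ males had 937, 909, 797 and 929 CPM of Nnat. The 3 M-Z- males had 1753, 2248 and 1585 CPM. The groups did not overlap, and replicate 2 of the M-Z- males held the highest Nnat level of all 23 embryos. The log2 fold change was 1.11 ± 0.13 (95% interval 0.84 to 1.38; edgeR adjusted p = 4.80e-04), and it was 0.90 without that embryo, still called.

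Blcap lay between 68.9 and 76.4 CPM in M+Z+ females, with a median of 72.9. The 4 M-Z- females had 38.4, 36.7, 42.7 and 37.6 CPM. All were below every M+Z+ female, with a log2 fold change of -0.92 ± 0.05 (95% interval -1.02 to -0.81; edgeR adjusted p = 3.05e-09).

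The 4 M+Z+ males had 67.0, 66.1, 67.1 and 74.6 CPM of Blcap. The 3 M-Z- males had 40.6, 38.6 and 44.0 CPM. Again no M-Z- embryo reached the controls, and the log2 fold change was -0.70 ± 0.07 (95% interval -0.85 to -0.56; edgeR adjusted p = 9.41e-05). Replicate 2 of the M-Z- males, which held the most Nnat, had the least Blcap of the 3.

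**Figure D2:**
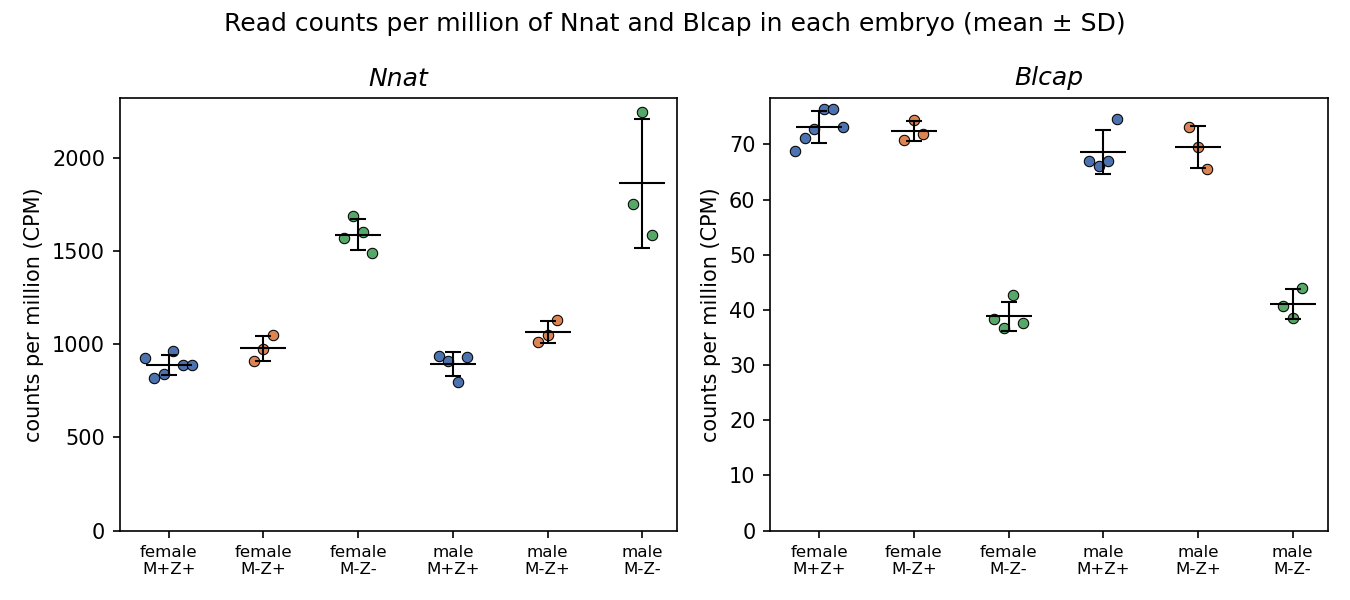
CPM of Nnat (left) and Blcap (right) in each embryo, 1 point per embryo, with a horizontal line at the group mean and whiskers of 1 SD, for females and males of each genotype; both axes start at 0. In both sexes the M-Z- points of Nnat stand above all others, between 1488 and 2248 CPM, and those of Blcap below all others, between 36.7 and 44.0 CPM.

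Loss of maternal Zfp57 alone left the host gene close to its control level. Blcap had 70.9, 74.5 and 71.8 CPM in the 3 M-Z+ females and 73.2, 69.5 and 65.6 CPM in the 3 M-Z+ males, which overlapped M+Z+ embryos of the same sex. The log2 differences from M+Z+ were -0.03 (95% interval -0.13 to 0.08; adjusted p = 0.926) in females and -0.01 (95% interval -0.15 to 0.13; adjusted p = 0.991) in males. The fall seen in M-Z- embryos lies outside both intervals.

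Nnat had 911, 973 and 1048 CPM in M-Z+ females, which overlapped the controls. It had 1013, 1048 and 1128 CPM in M-Z+ males, all above the 4 M+Z+ males. Neither difference passed the test. The log2 differences were 0.13 (95% interval -0.00 to 0.25; edgeR adjusted p = 0.733) in females and 0.23 (95% interval -0.04 to 0.50; edgeR adjusted p = 0.646) in males. Among all genes, edgeR called 0.0593% in females in this contrast, which is 10 genes and ran from 5 (without replicate 6 of the M+Z+ or replicate 1 of the M-Z+ females) to 12 with single embryos left out. In males it called 0.048%, which is 8 genes and ran from 0 to 54. The M+Z+ embryos here are the same as in the comparison with M-Z- embryos.

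The 2 mutant genotypes also differed directly. In M-Z- females Nnat exceeded its M-Z+ level by a log2 difference of 0.71 ± 0.07 (edgeR adjusted p = 1.37e-05), and Blcap differed by -0.89 ± 0.06 (edgeR adjusted p = 6.29e-08). In M-Z- males the difference was 0.88 ± 0.14 for Nnat (edgeR adjusted p = 0.0177) and -0.70 ± 0.07 for Blcap (edgeR adjusted p = 4.04e-04). Of all genes, 0.196% were called in females, 0.124% higher and 0.0711% lower, and 0.15% in males, 0.084% higher and 0.066% lower. The male share rests on 25 genes, and without replicate 3 of the M-Z- males 376 were called. The same M-Z- embryos enter both comparisons, so these values are not independent of those against M+Z+. The call of Nnat in males was the least firm of these: it was lost with any of the 3 M-Z+ males left out (adjusted p = 0.182, 0.154 and 0.0985 for replicates 1, 2 and 3), while the log2 difference stayed between 0.84 and 0.92.

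With the 2 genes moving apart, the ratio of Nnat to Blcap TPM set the M-Z- embryos apart. It was 19.2 ± 1.2 in M+Z+, 21.3 ± 1.5 in M-Z+ and 64.7 ± 5.7 in M-Z- females. In males it was 20.5 ± 1.6, 24.2 ± 2.7 and 72.3 ± 17.9. The lowest ratio in an M-Z- embryo was 56.8, and the highest in any other embryo was 27.1. The ratio is a description of the 2 genes together and was not tested on its own.

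**Figure D3:**
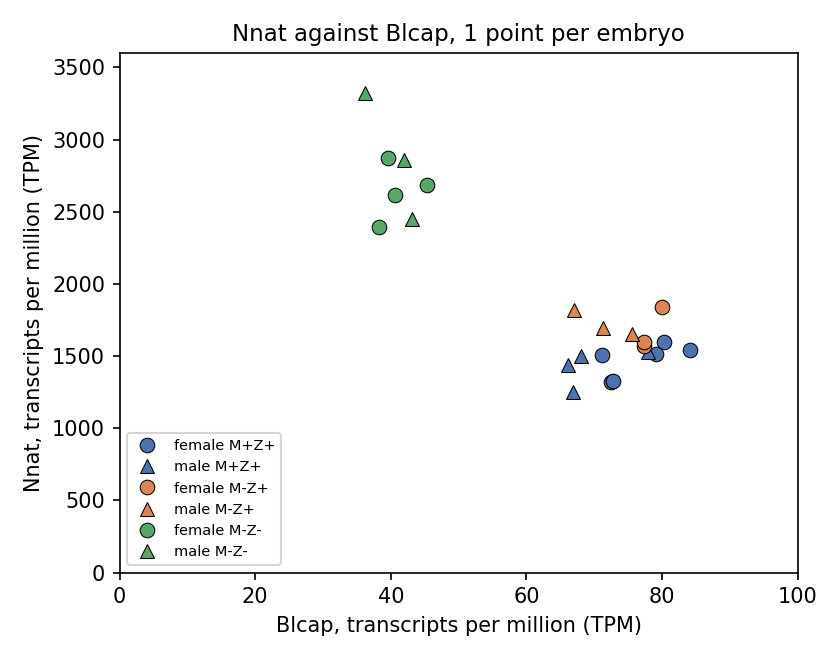
TPM of Nnat against TPM of Blcap, 1 point per embryo, with circles for females, triangles for males and a colour for each genotype; both axes start at 0. The 7 M-Z- embryos form a cluster of their own at 36.2 to 45.4 TPM of Blcap, and M+Z+ and M-Z+ embryos share the other.

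Within the 10 M+Z+ embryos no relation between the levels of the 2 genes was detected. Pearson's r of their CPM was 0.22 (permutation p = 0.535) and Spearman's rho was 0.19 (permutation p = 0.609). Without the 2 embryos farthest from the median of Nnat, r was -0.07. Within the 6 females r was 0.29, and the 4 males are too few to give a value.

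The sexes were compared in a fit of all 23 embryos. In M+Z+ embryos the log2 difference, female minus male, was -0.01 (95% interval -0.18 to 0.16; edgeR adjusted p = 0.992) for Nnat and 0.09 (95% interval -0.01 to 0.19; edgeR adjusted p = 0.935) for Blcap, in a contrast in which 0.0817% of genes were called at a log2 difference of 0.3 or more. The interaction of sex with the M-Z- genotype (its log2 fold change over M+Z+ in females minus that in males) was -0.26 ± 0.13 (95% interval -0.53 to 0.01; edgeR adjusted p = 0.758) for Nnat and -0.20 ± 0.08 (95% interval -0.36 to -0.05; edgeR adjusted p = 0.725) for Blcap. Neither passed the adjustment over 17139 genes, and without replicate 2 of the M-Z- males the interaction of Nnat was -0.06. The same interaction for M-Z+ embryos was -0.11 (95% interval -0.39 to 0.17) for Nnat and -0.03 (95% interval -0.18 to 0.13) for Blcap, both with an edgeR adjusted p of 0.99997. That of Nnat ran from -0.150 to -0.053 with single embryos left out.

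The alleles of both genes could be read only thinly. In females 0.113% of the reads counted for Nnat were assigned to an allele, and in males 0.142%, where the median over autosomal genes with a mean of 1000 reads or more was 3.50% in females and 3.35% in males. For Blcap the shares were 0.109% and 0.0575%. Between 37.1% and 39.8% of those genes had a lower share than the member they were set against, most of them with no allele read at all. The allele values therefore rest on 10 to 56 reads of Nnat per embryo, and intervals cover counting error only.

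The allele-assigned Nnat reads of M+Z+ embryos were mostly paternal, as known of this gene, but not exclusively. Whether so small a share of the reads stands for all Nnat reads was not tested. In M+Z+ females 68 of 89 allele-assigned reads were paternal, 76.4% (exact 95% binomial interval 66.2 to 84.8). In M+Z+ males 70 of 86 were paternal, 81.4% (interval 71.6 to 89.0). Per embryo the paternal share ran from 61.1% to 100% in females and from 71.4% to 88.9% in males. Over the genes within 5 Mb of Nnat that had enough allele reads (91 in females and 89 in males, the imprinted Mcts2 and H13 left out), the summed paternal share lay between 49.9% and 51.1% in every embryo, on 37831 to 60725 reads.

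With loss of both maternal and zygotic Zfp57 more Nnat reads could be assigned, and the paternal allele still gave most of them. In M-Z- females 110 of 146 reads were paternal, 75.3% (interval 67.5 to 82.1), and the 4 embryos had shares of 82.9%, 71.1%, 63.3% and 81.1%. In M-Z- males 91 of 133 reads were paternal, 68.4% (interval 59.8 to 76.2), and the 3 embryos had 56.6%, 75% and 79.2%. These embryos overlapped the controls of their sex. In M-Z+ females 52 of 69 reads were paternal, 75.4% (interval 63.5 to 84.9), and in M-Z+ males 45 of 78, 57.7% (interval 46.0 to 68.8).

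Shares were compared as the P-score, the paternal fraction minus 0.5, in embryos with more than 10 allele reads, which left out 1 M+Z+ female with 10. The mean P-score was 0.290 ± 0.143 (SD, n = 5) in M+Z+, 0.247 ± 0.040 (n = 3) in M-Z+ and 0.246 ± 0.091 (n = 4) in M-Z- females, where 0.5 is wholly paternal and 0 is equal. No difference among the 3 genotypes was detected (exact Kruskal-Wallis test, p = 0.809). M-Z- and M+Z+ females differed by -0.04 (two-sided exact permutation test, p = 0.619), and the difference ran from -0.0891 to 0.0081 with single embryos left out, above 0 without replicate 2 of the M+Z+ females.

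In males the mean P-score was 0.316 ± 0.073 (n = 4) in M+Z+, 0.073 ± 0.124 (n = 3) in M-Z+ and 0.203 ± 0.120 (n = 3) in M-Z- embryos. The 3 M-Z+ males had 13 of 27, 20 of 28 and 12 of 23 reads from the paternal allele, so 2 of them were near equal and the other was like a control. The exact Kruskal-Wallis test gave p = 0.0590. M-Z+ and M+Z+ males differed by -0.24 (two-sided exact permutation test, p = 0.0571, where 3 against 4 cannot go below 0.0286), and M-Z- and M+Z+ males by -0.11 (exact p = 0.171), or by -0.045 without replicate 1 of the M-Z- males. The fit of allele by genotype, over 6423 autosomal genes in males and 6468 in females, gave edgeR adjusted p values of 0.791 and 0.815 for these 2 contrasts in males and of 1 for both in females. At a P-score difference of 0.1 or more it called 0.171% and 2.54% of genes in males and 0.186% and 0.402% in females, and Nnat was not among them.

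No difference in P-score between the sexes was detected. Female minus male it was -0.03 in M+Z+ (two-sided exact permutation test, p = 0.714), 0.17 in M-Z+ (exact p = 0.2, the smallest that 3 against 3 allows being 0.1) and 0.04 in M-Z- embryos (exact p = 0.6). Setting the sexes' genotype effects against each other, the difference from M+Z+ had a female minus male value of 0.20 in M-Z+ embryos (exact permutation p = 0.125) and of 0.07 in M-Z- embryos (exact permutation p = 0.528). The value for M-Z- embryos ran from 0.0011 to 0.122 with single embryos left out.

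**Figure D4:**
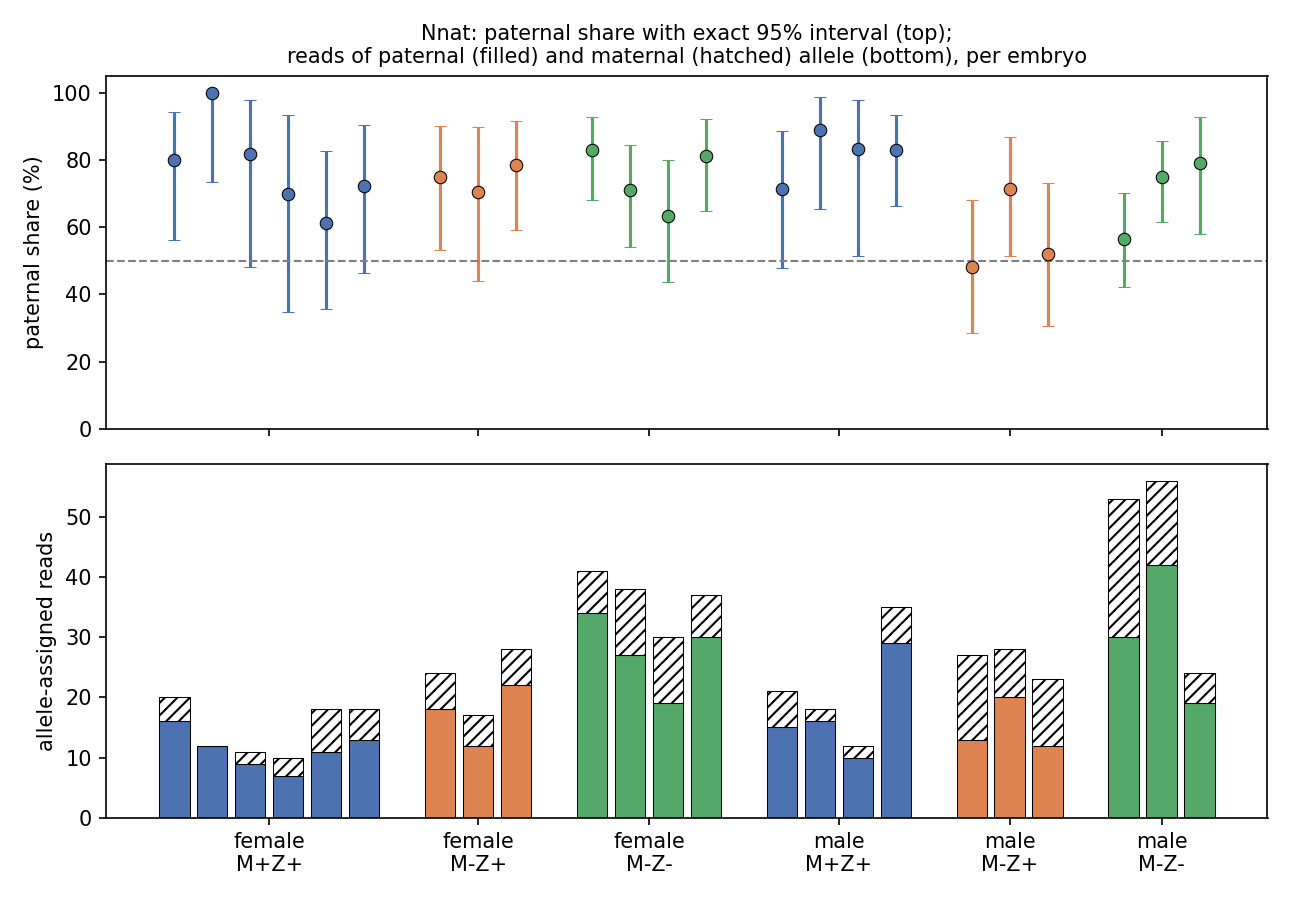
Paternal share of allele-assigned Nnat reads per embryo in percent with its exact 95% binomial interval (top, dashed line at 50%), and the reads behind it (bottom, filled for paternal and hatched for maternal), by sex and genotype. The M-Z- embryos have 24 to 56 reads, and their shares of 56.6% to 82.9% overlap those of the M+Z+ embryos, and 2 M-Z+ males lie near 50%.

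Each allele was then scaled to the allele-assigned reads of its embryo. Per 1000000 such reads, the paternal reads of Nnat stood at 3.93 ± 1.03 in M+Z+ and 9.23 ± 1.34 in M-Z- females, without overlap between the groups. The log2 fold change was 1.17 ± 0.25 (95% interval 0.65 to 1.69; edgeR adjusted p = 0.0900, where 0.0913% of 6569 genes were called), and an exact permutation test of this single value gave p = 0.00476, the smallest it can give. Maternal reads stood at 1.202 ± 0.805 in M+Z+ females and 3.12 ± 1.07 in M-Z- females (exact permutation p = 0.0190). They were too few to pass the filter on low counts, and without the filter the log2 difference was 1.27 (edgeR adjusted p = 0.451), not called. In M-Z+ females the paternal reads stood at 6.23 ± 1.79, a log2 difference from M+Z+ of 0.60 (95% interval 0.00072 to 1.202; edgeR adjusted p = 0.784; exact permutation p = 0.0476), and the maternal reads at 2.04 ± 0.21 (exact permutation p = 0.131). The maternal reads of single M-Z- females were 7, 11, 11 and 7, and M+Z+ females had between 0 and 7.

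On the same scale, the maternal reads of Nnat in males stood at 1.28 ± 0.71 in M+Z+, 4.31 ± 1.24 in M-Z+ and 5.65 ± 3.71 in M-Z- embryos. The rise in M-Z- males was called, at 2.05 ± 0.54 on the log2 scale (95% interval 0.91 to 3.19; edgeR adjusted p = 0.0476; exact permutation p = 0.0571), in a contrast in which 2.94% of 6570 genes were called, 2.47% higher. It was lost with any of 5 single embryos left out (replicates 1, 2 and 3 of the M+Z+ and replicates 1 and 2 of the M-Z- males, adjusted p = 0.0992 to 0.259), and the M-Z- males, with 23, 14 and 5 maternal reads, overlapped the M+Z+ males. In M-Z+ males the log2 difference was 1.65 ± 0.56 (edgeR adjusted p = 0.482, with 0.198% of genes called; exact permutation p = 0.0286, the smallest possible), and the groups did not overlap, at 14, 8 and 11 maternal reads against 6, 2, 2 and 6. In males 2.62% of 6370 genes were called for paternal reads between M-Z- and M+Z+. Paternal reads of Nnat in M-Z- males differed from M+Z+ by 1.04 ± 0.38 (edgeR adjusted p = 0.222; exact permutation p = 0.114), and in M-Z+ males by -0.02 (95% interval -0.92 to 0.88).

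Blcap gave no usable allele value. Its allele-assigned reads numbered between 0 and 8 per embryo, and no embryo passed the limit for a P-score. Over all M+Z+ and M-Z+ females, 3 reads were paternal and 13 maternal, 6 of the latter in 1 M-Z+ embryo. In the 4 M-Z- females no read could be assigned, and in males 6 reads in all were assigned. No difference between alleles of Blcap was tested, given so few reads from so few embryos.

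Other imprinted genes that sit in an intron of a host gene were set beside the pair. Nap1l5 lies in Herc3, Zrsr1 in Commd1, Peg13 in Trappc9 and Mcts2 in H13, and all 4 intronic genes are known to be paternally expressed. In M-Z- against M+Z+ embryos 2 of the 4 were called higher in each sex, none lower, where 0.285% of all genes were called higher in females and 0.264% in males. The median log2 fold change of the 4 was 0.55 in females and 0.47 in males, where the median over all genes was 0.00 in both. Nap1l5 rose by a log2 difference of 0.75 ± 0.11 (edgeR adjusted p = 9.84e-04) in females, and by 1.03 ± 0.12 (edgeR adjusted p = 9.06e-04) in males. Zrsr1, which encodes a splicing-related protein, rose by 0.80 ± 0.10 (edgeR adjusted p = 2.20e-04) in females, and by 0.66 ± 0.13 (edgeR adjusted p = 0.0461) in males.

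Peg13, a noncoding RNA, differed by 0.35 ± 0.09 (edgeR adjusted p = 0.0748) in females and by 0.28 ± 0.07 (edgeR adjusted p = 0.117) in males, and Mcts2 by 0.20 and 0.07. No host gene other than Blcap was called by edgeR or DESeq2 in either sex, and 1 of the 4 (Herc3, in females) had an unadjusted p under 0.05, where 15.5% of all genes in females and 17.0% in males had one. Herc3 differed by -0.20 (95% interval -0.34 to -0.07; adjusted p = 0.133) in females and -0.13 in males. Commd1 differed by -0.13 and -0.15, H13 by -0.05 and 0.05, and Trappc9 by -0.07 and 0.06. In none of these 4 pairs did the host's 95% interval reach the fall of Blcap.

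**Figure D5:**
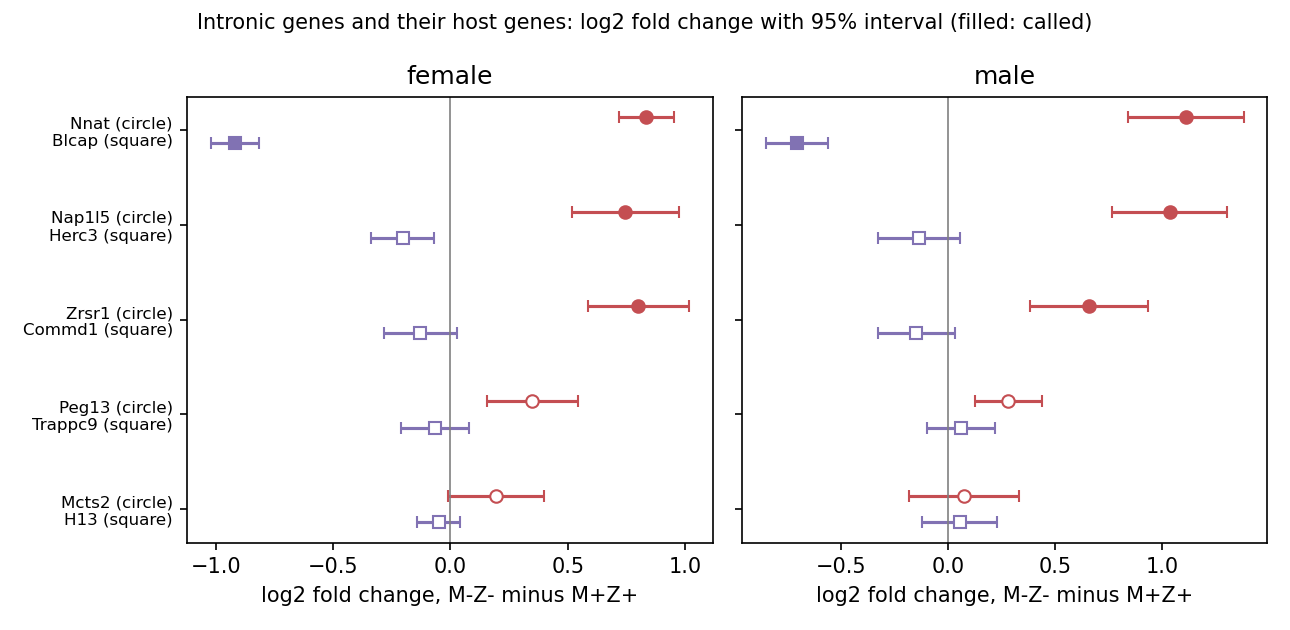
Log2 fold change between M-Z- and M+Z+ embryos with its 95% interval for 5 intronic genes (circles) and their hosts (squares), in females (left) and males (right); filled symbols were called. Nnat and Blcap stand on opposite sides of 0, and the other host genes lie between -0.20 and 0.06.

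Paternal bias could also be read for 2 of the other intronic genes. In M+Z+ embryos Peg13 had a mean P-score of 0.4995 ± 0.0012 (n = 6) in females and 0.4985 ± 0.0017 (n = 4) in males, over 314 to 507 allele reads per embryo. Mcts2 had 0.472 ± 0.018 and 0.484 ± 0.012. Both lay above the 0.290 and 0.316 of Nnat, which rests on far fewer reads. In M-Z- embryos the P-score of Peg13 was 0.216 ± 0.156 (n = 4) in females and 0.195 ± 0.152 (n = 3) in males, while that of Mcts2 was 0.481 ± 0.012 and 0.478 ± 0.002. These differences were not tested. No allele read was assigned to Nap1l5, Zrsr1 or Commd1 in any embryo.

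The neighbours of the pair were examined next. Of 14 other genes within 500 kb of Nnat, 11 passed the filter on low counts, and none was called between M-Z- and M+Z+ embryos by edgeR or DESeq2 in either sex, with 2 at an unadjusted p under 0.05 in females and 1 in males. With 0.563% and 0.39% of all genes called, and 15.5% and 17.0% at such a p, these counts are near the background. Their median log2 difference was 0.01 in females and 0.02 in males. Mroh8 had the largest difference in both sexes, at 0.86 (edgeR adjusted p = 0.143) in females and 0.53 (edgeR adjusted p = 0.461) in males, on mean levels of 1.11 to 2.03 CPM. Vstm2l followed in females, at -0.35 (edgeR adjusted p = 0.0890), and stood at 0.09 in males. In males Rbl1, which encodes a relative of the retinoblastoma protein, came after Mroh8, at -0.19 (unadjusted p = 0.0490, edgeR adjusted p = 0.292), and stood at -0.04 in females.

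Genes for the calcium pumps that neuronatin is associated with were looked at too. Of 10 genes for SERCA pumps and other calcium-handling proteins of the reticulum, none was called between M-Z- and M+Z+ embryos in either sex by edgeR or DESeq2, and 1 in females and 0 in males had an unadjusted p under 0.05. These counts too are at or near the background over all genes, 0.563% and 0.39% called and 15.5% and 17.0% at such a p. The median log2 difference was -0.02 in females and 0.02 in males. Pln, which encodes the pump inhibitor phospholamban, differed by 0.43 ± 0.11 (edgeR adjusted p = 0.0745) in females and by 0.25 ± 0.14 (edgeR adjusted p = 0.384) in males. Sln, which encodes the inhibitor sarcolipin, differed by -0.28 ± 0.16 (edgeR adjusted p = 0.413) in females and by -0.45 ± 0.21 (edgeR adjusted p = 0.307) in males. Atp2a3, which encodes the pump SERCA3, differed by -0.33 ± 0.23 (edgeR adjusted p = 0.475) in males, the largest difference after Sln, and by -0.03 in females.

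Tissue markers were summed to follow the makeup of the embryos. The 10 neuron markers summed to 2321 ± 159 CPM (2151 to 2589) in M+Z+ and 2093 ± 85 (1980 to 2178) in M-Z- females, and to 2205 ± 89 (2077 to 2274) and 2046 ± 113 (1943 to 2167) in males. The sums were lower on average in M-Z- embryos, and their ranges overlapped in both sexes. Log2 differences of the 10 markers ran from -0.24 to -0.04 in females (median -0.14). In males they ran from -0.18 to 0.12 (median -0.04), so the list was split in direction there. The 6 neural progenitor markers summed to 617 ± 38 CPM (577 to 653) in M+Z+ and 615 ± 37 (577 to 651) in M-Z- females, and to 605 ± 37 (553 to 640) and 578 ± 77 (517 to 665) in males, and the groups overlapped in both sexes. The 5 liver markers summed to 3187 to 6966 CPM in M+Z+ and 2401 to 3945 in M-Z- females, and to 4527 to 6580 and 1664 to 4347 in males, where the groups did not overlap. Blood markers summed to 6921 to 10362 and 3861 to 8059 CPM in M+Z+ and M-Z- females, and to 8896 to 10479 and 7141 to 11112 in males. Most of the sum is Hbb-b1, an adult globin, and the 5 blood markers were split in direction, with log2 differences from -0.70 to 1.17 in females (median -0.42) and from -0.77 to 2.68 in males (median 0.00). The highest value in both sexes was that of Hbb-bh1, an embryonic globin. Muscle markers summed to 492 to 826 and 520 to 697 CPM in M+Z+ and M-Z- females, and to 569 to 758 and 560 to 695 in males. Cartilage markers summed to 1231 to 2013 and 1269 to 1682 CPM in females, and to 1613 to 2243 and 1338 to 2080 in males. The 5 pituitary and 5 pancreas markers, from tissues in which Nnat is known to be expressed, were rare. Pituitary markers summed to 3.54 ± 0.45 CPM in M+Z+ and 2.80 ± 0.51 in M-Z- females, and to 3.39 ± 0.41 and 2.95 ± 0.49 in males. Pancreas markers summed to 2.95 ± 0.46 CPM (2.17 to 3.56) in M+Z+ and 1.64 ± 0.67 (0.946 to 2.45) in M-Z- females, and to 2.62 ± 1.18 (0.98 to 3.60) and 1.03 ± 0.52 (0.489 to 1.53) in males, and 1 of them was at 0 in all M-Z- embryos of each sex. The 1 pancreas marker that passed the filter differed by -1.004 in females and -1.898 in males, each with an unadjusted p under 0.05 and not called. Of 45 markers in 8 lists 38 passed the filter on low counts, and none was called by edgeR between M-Z- and M+Z+ embryos. In females 19 of them had an unadjusted p under 0.05 and none was called by DESeq2, and in males 8 had such a p and DESeq2 called 1, Hbb-bh1, which was higher in M-Z- males (DESeq2 adjusted p = 0.0140, edgeR adjusted p = 0.0583). Of all genes tested, 15.5% in females and 17.0% in males had an unadjusted p under 0.05 in this contrast. The part of tissue makeup in the changes of Nnat and Blcap was not tested.

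The genes whose levels went most closely with those of the pair were then listed. Over 15501 genes whose mean level reached 1 CPM, the Pearson correlation of log2(CPM + 0.5) with Nnat over all 23 embryos was highest for Mest (0.94), Rian (0.92) and Inpp5f (0.92), and lowest for Dlk1 (-0.94), Mtarc1 (-0.94) and Ltv1 (-0.93). For Blcap it was highest for Dlk1 (0.97), Phactr2 (0.96) and Zim1 (0.96), and lowest for Inpp5f (-0.96), Ddc (-0.95) and Mest (-0.94). These values are descriptions: the embryos fall into the M-Z- cluster and the rest, and the points share genotype and tissue makeup. Within the 10 M+Z+ embryos r with Nnat was -0.27 for Mest, -0.46 for Rian and -0.21 for Inpp5f. It was -0.78 for Dlk1, -0.84 for Mtarc1 and -0.57 for Ltv1. With Blcap r was -0.16 for Dlk1, 0.47 for Phactr2 and 0.82 for Zim1. It was 0.098 for Inpp5f, -0.21 for Ddc and 0.36 for Mest.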

How the data were processed

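The deposited tables hold raw read counts per gene, made by the authors with STAR 2.7.8a on mm9 and featureCounts (Subread 2.0.1, reverse-stranded, reads counted for each overlapping gene), and counts per allele after SNPsplit on an N-masked mm9; the other deposited column used is exon length. Xist and Tsix, which overlap on opposite strands, had 3019 and 7.68 mean CPM in M+Z+ females, so the counts carry strand. The members and gene lists were chosen with earlier results of these data known. Counts were tested with edgeR (TMM, filterByExpr, one fit per sex over its 3 genotypes), with DESeq2 as an alternative. Benjamini-Hochberg adjustment was over all genes tested. The edgeR fits were checked on data simulated on the female design. The simulated allele changes were in genes with more allele reads than Nnat, so this check does not cover its allele depth. P-scores needed more than 10 allele reads and were compared by exact permutation. Among the allele columns of the females some names occur more than once, so 4 M+Z+ embryos carry no number there. Labels do not state litters, so embryos were treated as independent, and p-values may be too small if litter mates are alike. M+Z+ embryos had other mothers than M-Z+ and M-Z- embryos. Effects of mother or litter therefore cannot be told apart from genotype in contrasts with M+Z+. Named genes were the members, the intronic and host genes, called genes and the 2 largest differences of the neighbour and SERCA lists in each sex, and the 3 highest and lowest correlations. Alternatives were DESeq2, RLE size factors, no filter, the replicate block, subsets of groups or of M+Z+ embryos, other read minimums and leaving out single embryos.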

Additional observations from a re-analysis of the deposited data

Results flagged for a closer look

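The Blcap level of replicate 4 of the M+Z+ males, 74.6 CPM, stood apart from the other 3 of its group, which lay between 66.1 and 67.1 CPM. This was the only one of 18 sets of 4 to 10 embryos examined (levels, ratio and allele values of the 2 genes) in which an end value stood apart, and chance alone gives about 1 in 20. The study names the control embryos as 2 sets in each sex, and the labels do not say which replicate numbers belong to which set or how the sets differ. Whether this embryo stands apart because of its set was not tested. Split by number, M-Z- females differed from M+Z+ females 1 to 3 in 226 genes called and from those numbered 4 or higher in 67, and Nnat and Blcap were called against either (log2 differences of 0.87 and -0.88, and of 0.81 and -0.95).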

How the results depend on the processing

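Of 176 alternative values for the expression of Nnat and Blcap between genotypes, 163 kept their direction and their side of the threshold, and of 150 for the P-score 137 did. Values that changed sign were not called under either setting. Blcap between M-Z+ and M+Z+ stood at 0.0061 in females with only M+Z+ embryos 1 to 3, and in males at 0.031 with those, at 0.027 with the block and from -0.038 to 0.033 with single embryos left out. On leaving out single embryos Nnat between the sexes in M+Z+ ran from -0.059 to 0.017, the M-Z+ sex interaction of Blcap from -0.059 to 0.017, maternal reads between M-Z- and M-Z+ males from -0.14 to 0.81 and paternal reads between M-Z+ and M+Z+ males from -0.31 to 0.375. P-score differences in females then ran from -0.0891 to 0.0081 (M-Z- against M+Z+), -0.0879 to 0.0093 (M-Z+ against M+Z+) and -0.029 to 0.0363 (M-Z- against M-Z+, 0.00034 with each embryo's median subtracted), and female minus male from -0.0784 to 0.0188 in M+Z+ and from -0.0248 to 0.088 in M-Z-. The replicate block kept both genes called against M+Z+ in both sexes (log2 differences of 0.83 and -0.91 in females and 1.10 and -0.67 in males), although the embryos share only a number: correlations of deviations between same-numbered embryos ran from -0.364 to 0.305 in females and from -0.213 to 0.505 in males (medians -0.10 and -0.04), and between differently numbered ones from -0.407 to 0.421 and from -0.331 to 0.199, so not every same-numbered pair was over 0.1. Nnat between M-Z- and M-Z+ males was no longer called with the replicate block (0.86, edgeR adjusted p = 0.0531), with only these 2 groups fitted (0.87, adjusted p = 0.251) or with replicate 4 as the only M+Z+ male (0.88, adjusted p = 0.214), and ranged from 0.67 to 1.00 with single embryos left out. With replicate 4 as the only M+Z+ male, assumed to vary like the other groups, Nnat between M-Z- and M+Z+ males stood at 1.07 (adjusted p = 0.651) and Blcap at -0.80 (adjusted p = 0.0869), neither called; fewer embryos were then fitted. Without a filter on allele counts, an alternative added after the data were seen, paternal reads of Nnat were called between M-Z- and M+Z+ embryos in females (1.17, adjusted p = 0.0332) and males (1.04, adjusted p = 0.0436). With single embryos left out, maternal reads in males ranged from 1.51 to 2.46, the exact Kruskal-Wallis p of the male P-score from 0.0107 to 0.142 (0.0267 with each embryo's median P-score subtracted), and the sex by genotype interaction for M-Z+ from 0.155 to 0.272. That interaction was 0.253 without replicate 2 of the M+Z+ females (exact permutation p = 0.0314). The cause of these changes was not tested. A minimum of 50 allele reads left too few embryos to compare P-scores. All genes called between M-Z- and M+Z+ males numbered 65, with a range of 3 to 899 over alternatives (899 without replicate 3 of the M-Z- males, 128 with the block, 186 by DESeq2), and in females 95, with a range of 52 (block) to 226. Between M-Z- and M-Z+ males 25 were called (16 to 376), and between M-Z+ and M+Z+ males 8 (0 to 54). In females these were 33 (23 to 50) and 10 (3 with only the groups compared, to 78 with only M+Z+ embryos 1 to 3). The allele reads of Blcap, 0 to 8 per embryo, set the limit of what could be compared there.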
